A study of Homo sapiens with 10 samples.

Results

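The genes described here encode ligands of the epidermal growth factor receptor (EGFR) and the proteins that release those ligands from the cell surface. The set comprises the ligands TGFA, HBEGF, EREG, AREG and BTC, the sheddases ADAM10 and ADAM17, and RHBDF2, a regulator of ADAM17. Members were taken by gene symbol, and every probe annotated to 1 of these symbols was included whether or not it was detected. This gave 14 probes for 7 of the 8 listed genes, out of 20741 genes with a probe of their own on either array type. No probe carried the symbol AREG in the annotation used, and AREG was not analysed here. The same 14 probes were present on both array types.

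HN5 and FaDu are established head and neck cancer cell lines. Each was transfected with miR-7 or with miR-NC, a negative-control microRNA, and total RNA was taken after 24 h. HN5 cells were profiled on 2 miR-7 arrays and 2 miR-NC arrays, and FaDu cells on 6 arrays, 3 with the label miR-7 and the other 3 with miR-NC. The labels call each array a biological replicate. Each line was run on its own type of Illumina BeadChip. Both groups of a line were transfected and differ in the microRNA used. Each line is a single cultured model, so tumour tissue is outside what these arrays measure.

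EGFR ligands of this family are made as precursors that span the plasma membrane. A metalloprotease cuts the precursor near the membrane and sets the soluble growth factor free, which can then bind EGFR on the same or a neighbouring cell. ADAM17 is best known for cutting the TGFA, HBEGF, EREG and AREG precursors, and ADAM10 for cutting BTC. RHBDF2 encodes iRhom2, a rhomboid pseudoprotease without proteolytic activity that carries ADAM17 out of the endoplasmic reticulum towards the cell surface. Squamous carcinoma cells commonly make several of these ligands themselves. The arrays measured mRNA, and neither protein nor shedding was measured.

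The transfected microRNA is shown because the groups differ by it. The mature human miR-7-5p is given 5′ to 3′ from RefSeq (GRCh38.p14), with its seed, bases 2 to 8, in capitals.
miR-7-5p: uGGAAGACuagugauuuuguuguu
This sequence is encoded at chr9:83969811-83969834 on the minus strand (MIR7-1), and the identical sequence at chr19:4770700-4770723 on the plus strand (MIR7-3). The MIR7-2 hairpin, at chr15:88611825-88611934 on the plus strand, holds the same run. A seed match in an mRNA reads GUCUUCC. The mRNAs themselves were not searched for it here.

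The median scanner intensity ran from 114.5 to 158.5 on the HN5 arrays and from 114.4 to 148.9 on the FaDu arrays. A detection p-value under 0.01, which sets a probe above the negative-control probes of its array, was met by 14158 to 14726 probes per HN5 array and by 16034 to 17424 per FaDu array. In HN5, miR-7 replicate 2 stood apart, with Pearson correlations of 0.904 to 0.923 with the other arrays of the line, whereas those other arrays correlated at 0.97 to 0.986 with one another. FaDu arrays correlated at 0.994 to 0.996 within a group and at 0.975 to 0.977 between groups. The squamous epithelial markers that had a probe, 6 of 9, were detected on every array of both lines. Of the leukocyte markers, CD14 was detected on every array of both lines and PTPRC and CD3E had no probe that was. Of the fibroblast markers, COL1A1 was detected on every HN5 array but not on every FaDu array, and COL1A2, DCN and LUM had no such probe in either line. PECAM1 in HN5 and CDH5 in FaDu were the endothelial markers detected on every array of the line, and VWF was in neither. The part of such transcripts in the results was not tested.

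EGFR itself, a known miR-7 target, served as the check of the labels. Its brightest probe (ILMN_1798975) had normalised log2 intensities of 12.11 and 12.05 on the HN5 miR-7 arrays, against 13.81 and 13.68 on the HN5 miR-NC arrays. In FaDu the same probe read 9.61, 9.48 and 9.46 on the arrays labelled miR-7, against 7.91, 7.98 and 7.94 on those labelled miR-NC. The log2 fold change was -1.67 in HN5 (adjusted p = 0.0789) and 1.57 in FaDu (adjusted p = 5.43e-06, limma with Benjamini-Hochberg adjustment). The other tested EGFR probes had smaller changes in the same direction. In HN5 they were -0.50, -0.69 and -0.21, with adjusted p of 0.352 to 0.703 (limma). In FaDu they were 0.45 (adjusted p = 0.00962, limma) and 0.18 (adjusted p = 0.301). EGFR was thus higher where the FaDu label was miR-7, a direction opposite to the one the study gives. For this reason every FaDu direction below is that of the arrays as labelled, and whether the labels are exchanged was not tested.

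TGFA, which encodes transforming growth factor alpha, was lower with miR-7 in HN5 cells and higher on the FaDu arrays labelled miR-7, at both of its probes. The study reports TGFA mRNA as lower with miR-7 in both lines, on its arrays and by quantitative PCR (RT-qPCR). The FaDu direction as labelled is thus opposite to the study's for TGFA as well as for EGFR. The difference between groups was 2.88-fold and 2.33-fold in HN5 and 2.58-fold and 2.21-fold in FaDu. In HN5, probe ILMN_2083946 gave normalised log2 intensities of 8.33 and 8.63 with miR-7, against 10.19 and 9.82 with miR-NC. The scanner intensities behind them were 443.9 and 368.0 with miR-7, against 1703.0 and 919.6 with miR-NC. The groups did not overlap. The second probe, ILMN_1805175, read 8.98 and 9.27 with miR-7, against 10.60 and 10.09 with miR-NC, and its groups were separate as well.

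The log2 fold change of TGFA in HN5 (miR-7 over miR-NC) was -1.53 (SE 0.23, 95% interval -2.11 to -0.94) at ILMN_2083946 and -1.22 (SE 0.25, 95% interval -1.86 to -0.57) at ILMN_1805175. Neither passed after adjustment over the 14428 tested probes (limma, adjusted p = 0.12 and 0.187), and no probe of the array did in either direction. Both passed the thresholds that the study applied to its arrays, an unadjusted p under 0.05 together with a change of at least 1.5-fold (unadjusted p = 0.00103 and 0.00442, limma). The calls depended on which arrays entered the fit. Each fit without an array left 1 array in its group, which is assumed to vary like the arrays of the other group. Without miR-7 replicate 2 the log2 fold changes were -1.67 and -1.36, and without miR-7 replicate 1 they were -1.38 and -1.07. The latter fit kept only the miR-7 array that stood apart. Without miR-NC replicate 1 the values were -1.34 and -0.97, and without miR-NC replicate 2 they were -1.71 and -1.47.

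On the FaDu arrays labelled miR-7, TGFA probe ILMN_2083946 read 8.51, 8.27 and 8.38, against 7.07, 6.89 and 7.09 on those labelled miR-NC. ILMN_1805175 read 7.70, 7.66 and 7.63 on the arrays labelled miR-7, against 6.32, 6.65 and 6.59 on those labelled miR-NC. The groups were separate at both probes. The log2 fold changes were 1.37 (SE 0.09, adjusted p = 2.94e-05, limma) and 1.15 (SE 0.10, adjusted p = 8.2e-05).

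HBEGF encodes heparin-binding EGF-like growth factor, which binds EGFR and ERBB4. Its 1 probe, ILMN_2121408, read 10.07 and 10.21 with miR-7 in HN5, against 10.72 and 10.89 with miR-NC. On the FaDu arrays it read 7.83, 7.62 and 7.74 where labelled miR-7, against 7.19, 7.10 and 6.81 where labelled miR-NC. The groups did not overlap in either line. With miR-7, HBEGF in HN5 was 1.58-fold lower, a log2 fold change of -0.66 (SE 0.19) that passed the study's thresholds (unadjusted p = 0.0161) but not the adjusted test (limma, adjusted p = 0.290). It was 1.62-fold higher on the FaDu arrays labelled miR-7 (log2 fold change 0.70, SE 0.11, adjusted p = 0.00202, limma).

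EREG encodes epiregulin, a ligand of EGFR and ERBB4. In HN5 its probe ILMN_1657248 was close to background. It read 6.52 and 5.36 with miR-7, against 6.62 and 6.87 with miR-NC, and the second miR-7 array was the only one on which it was not detected. That array is the one that stood apart, and the fold change rested on it: the log2 value was -0.80 (SE 0.41, limma, adjusted p = 0.471) with all arrays, -0.22 (adjusted p = 0.731) without miR-7 replicate 2 and -1.38 (adjusted p = 0.00218) without miR-7 replicate 1. In FaDu EREG was detected on all 6 arrays. It read 7.96, 7.65 and 8.19 where labelled miR-7, against 8.27, 7.89 and 7.93 where labelled miR-NC, and the groups overlapped (log2 fold change -0.10, 95% interval -0.45 to 0.26, adjusted p = 0.656, limma).

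BTC encodes betacellulin, another ligand of EGFR and ERBB4. Its probe ILMN_2081070 was not detected on any HN5 array and was not tested there. The readings were 6.38 and 6.14 with miR-7, with detection p of 0.0105 and 0.0224, against 4.97 and 5.16 with miR-NC, with detection p of 0.379 and 0.212. The miR-7 arrays were thus the brighter ones but missed the detection limit, and no fold is given. In FaDu BTC was detected on 5 of 6 arrays, at 5.71, 5.76 and 5.72 where labelled miR-7, against 5.53, 5.94 and 6.04 where labelled miR-NC. The groups overlapped (log2 fold change -0.11, 95% interval -0.40 to 0.18, adjusted p = 0.545, limma). Without miR-NC replicate 1 of FaDu the value was -0.26 (adjusted p = 0.0434, limma).

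**Figure D1:**
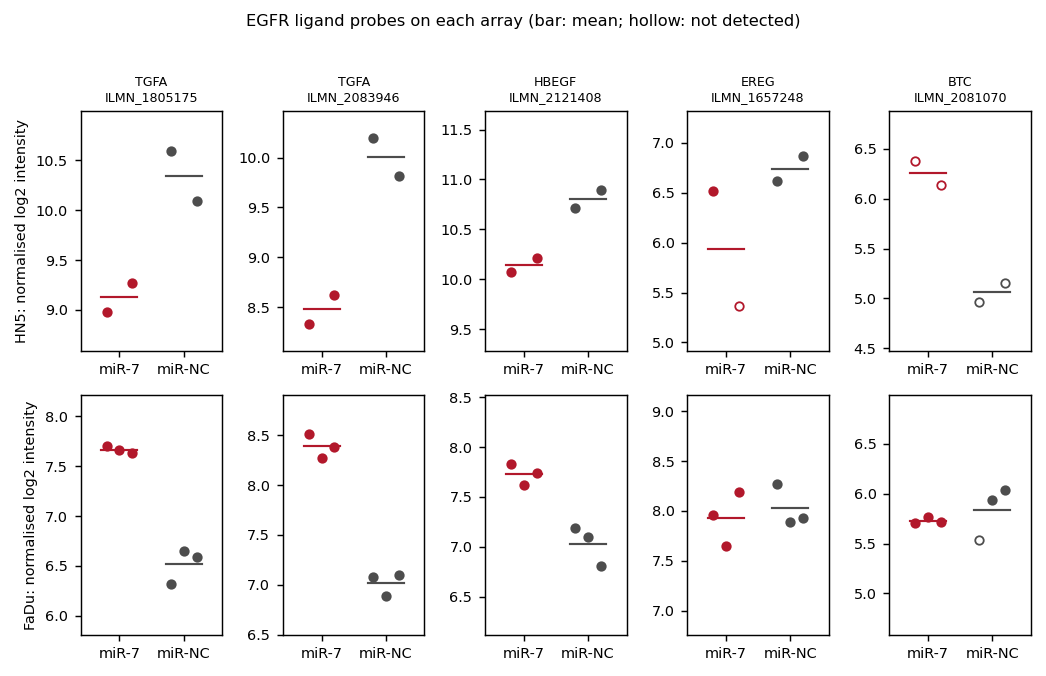
Normalised log2 intensity of the 5 ligand probes on each array, HN5 in the upper row and FaDu as labelled in the lower row, miR-7 left of miR-NC; bars are group means, hollow points are arrays on which the probe was not detected, and every panel spans the same range of log2 units. Both TGFA probes and HBEGF separate the groups in each line, with miR-7 below miR-NC in HN5 and above it in FaDu as labelled, whereas the FaDu points of EREG and BTC overlap.

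On the reference genome EREG and BTC lie in one cluster with AREG and EPGN, whereas TGFA and HBEGF each lie elsewhere. EPGN, which encodes a further EGFR ligand, had no probe of its own in the annotation. The RefSeq stretches of 100 bases directly upstream of TGFA, HBEGF and RHBDF2 are printed because these are the genes whose probes were higher together where the FaDu label was miR-7. They run 5′ to 3′ on the gene's strand (GRCh38.p14, the first start listed for each gene), with GC boxes in capitals, a GC box being GGGCGG on either strand and overlapping boxes counted apart.
TGFA, chr2:70553827-70553926, minus strand: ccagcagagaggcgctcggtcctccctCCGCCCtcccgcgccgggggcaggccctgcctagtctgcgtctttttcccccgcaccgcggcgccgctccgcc
HBEGF, chr5:140346604-140346703, minus strand: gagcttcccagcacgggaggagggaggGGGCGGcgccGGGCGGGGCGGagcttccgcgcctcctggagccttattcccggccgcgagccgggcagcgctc
RHBDF2, chr17:76501424-76501523, minus strand: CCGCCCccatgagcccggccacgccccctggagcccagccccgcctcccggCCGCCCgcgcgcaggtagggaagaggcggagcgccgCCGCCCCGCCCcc
Within 250 bases upstream, GC made up 75.6% of the TGFA stretch, 76.4% of HBEGF, 74% of RHBDF2, 75.6% of ADAM17, 68.4% of ADAM10, 65.2% of AREG, 62% of BTC and 58% of EREG, where the median of 27305 genes was 58%. GC boxes numbered 3 for TGFA, 5 for HBEGF, 5 for RHBDF2, 3 for ADAM17, 1 for ADAM10 and 1 for AREG, and none was found for EREG or BTC. At least 1 was present in 42.3% of all 27305 stretches. Neither a cyclic AMP response element (TGACGTCA) nor an AP-1 motif (TGANTCA) was found for TGFA, HBEGF or RHBDF2, and 1.77% and 6.6% of all stretches hold them. These matches describe the letters of the reference and not occupancy in these cells.

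ADAM17 encodes the metalloprotease also known as TACE. In HN5 its probes read higher with miR-7 after normalization. In FaDu its brightest probe was lower on the arrays labelled miR-7. Both directions were the reverse of those of TGFA. Probe ILMN_2121068 read 10.50 and 10.29 with miR-7 in HN5, against 9.79 and 9.91 with miR-NC. On the FaDu arrays it read 7.91, 7.95 and 7.88 where labelled miR-7, against 8.40, 8.38 and 8.52 where labelled miR-NC. At these normalised values the groups were separate in both lines. The HN5 scanner intensities overlapped, at 1602.3 and 991.1 with miR-7 against 1325.1 and 968 with miR-NC. With median scaling in place of quantile normalization the HN5 log2 fold change was 0.33 (adjusted p = 0.705, limma). The log2 fold change was 0.55 (SE 0.19, unadjusted p = 0.0344, adjusted p = 0.356, limma) in HN5 and -0.52 (SE 0.07, adjusted p = 0.000994) in FaDu, where it amounted to 1.43-fold and so passed the adjusted test but not the 1.5-fold limit of the study.

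The other ADAM17 probes were dimmer. ILMN_1765779 read 8.27 and 8.77 with miR-7 in HN5, against 7.98 and 7.88 with miR-NC (log2 fold change 0.59, SE 0.24, adjusted p = 0.400, limma). Without miR-7 replicate 1 its value was 0.84, and without miR-7 replicate 2 it was 0.34. Each of these fits left 1 miR-7 array, which in the former was the array that stood apart. In FaDu it was detected on 1 of 3 arrays labelled miR-7 and on 3 of 3 labelled miR-NC, and its groups overlapped (log2 fold change -0.13, 95% interval -0.39 to 0.13, adjusted p = 0.404). ILMN_1908488, which the annotation ties to an expressed sequence tag, read 6.79 and 7.23 with miR-7 in HN5, against 6.75 and 5.99 with miR-NC, the lowest of these undetected (log2 fold change 0.64, SE 0.32, adjusted p = 0.466, limma). The value was 0.26 without miR-NC replicate 2 (adjusted p = 0.828, limma) and 1.02 without miR-NC replicate 1 (adjusted p = 0.997, limma). It was detected on 2 of 3 FaDu arrays of either label and was not tested there. Thus 3 of 3 ADAM17 probes had positive fold changes in HN5 and none of them passed the adjusted test.

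ADAM10 encodes the related metalloprotease that also cuts Notch receptors and cadherins. Probe ILMN_1718946 read 8.78 and 8.21 with miR-7 in HN5, against 9.16 and 8.82 with miR-NC. The first miR-7 array lay just below the nearer miR-NC array, and the difference was within the spread of the replicates (log2 fold change -0.49, SE 0.27, 95% interval -1.18 to 0.20, adjusted p = 0.494, limma). It was -0.21 without miR-7 replicate 2 (adjusted p = 0.761, limma) and -0.78 without miR-7 replicate 1 (adjusted p = 0.0612, limma). The same probe read 8.61, 8.56 and 8.52 on FaDu arrays labelled miR-7, against 8.69, 8.69 and 8.61 on those labelled miR-NC, which overlapped (log2 fold change -0.10, adjusted p = 0.295, limma). The second probe, ILMN_2148360, was not detected on any HN5 array. In FaDu it read 6.49, 6.501 and 6.61 where labelled miR-7, against 6.72, 6.71 and 6.87 where labelled miR-NC. The groups did not overlap, and the log2 fold change of -0.24 (SE 0.08) had an adjusted p of 0.0450 (limma), which rose above 0.05 under 7 of the 9 other processing settings that tested it and without any 1 of the 6 FaDu arrays.

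RHBDF2 was measured by 4 probes, which differed from one another. At ILMN_1691717 the HN5 arrays read 9.97 and 9.68 with miR-7, against 10.79 and 10.64 with miR-NC. At ILMN_2373062 they read 10.002 and 10.26 with miR-7, against 10.68 and 10.57 with miR-NC. Both probes separated the HN5 groups, with log2 fold changes of -0.89 (SE 0.20, adjusted p = 0.220, limma) and -0.49 (SE 0.20, adjusted p = 0.399), and ILMN_1691717 passed the study's thresholds (unadjusted p = 0.00673). Without miR-7 replicate 1 the ILMN_1691717 value was -1.04, and without miR-7 replicate 2 it was -0.74. Each of these fits left 1 miR-7 array, which in the former was the array that stood apart. ILMN_1735792 overlapped between the HN5 groups, at 7.10 and 7.01 with miR-7 against 7.17 and 6.93 with miR-NC (log2 fold change 0.0078, 95% interval -0.48 to 0.50). ILMN_2275126 was not detected on any array of either line.

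On the FaDu arrays RHBDF2 was higher where labelled miR-7 at all 3 of the detected probes. ILMN_1691717 read 8.34, 8.26 and 8.37 where labelled miR-7, against 7.02, 7.22 and 7.37 where labelled miR-NC. ILMN_2373062 read 7.60, 7.39 and 7.43 where labelled miR-7, against 6.47, 6.52 and 6.43 where labelled miR-NC. These changes were 2.17-fold and 2.00-fold (log2 fold changes 1.12, SE 0.10, and 1.00, SE 0.08; adjusted p = 9.54e-05 and 6.41e-05, limma). ILMN_1735792 read 7.41, 7.499 and 7.23 where labelled miR-7, against 7.20, 6.84 and 6.90 where labelled miR-NC, a 1.32-fold change (log2 fold change 0.40, SE 0.12, adjusted p = 0.0276, limma). The interval of that probe, 0.14 to 0.67, lay below the intervals of the other RHBDF2 probes, 0.89 to 1.34 and 0.82 to 1.18. Its call was lost without any 1 of 4 FaDu arrays, miR-NC replicate 2 or 3 or miR-7 replicate 1 or 2 (adjusted p = 0.0769 to 0.0881), and also with median scaling, without the detection filter and with the methods' test (adjusted p = 0.0713, 0.0849 and 0.11, limma for the first pair).

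**Figure D2:**
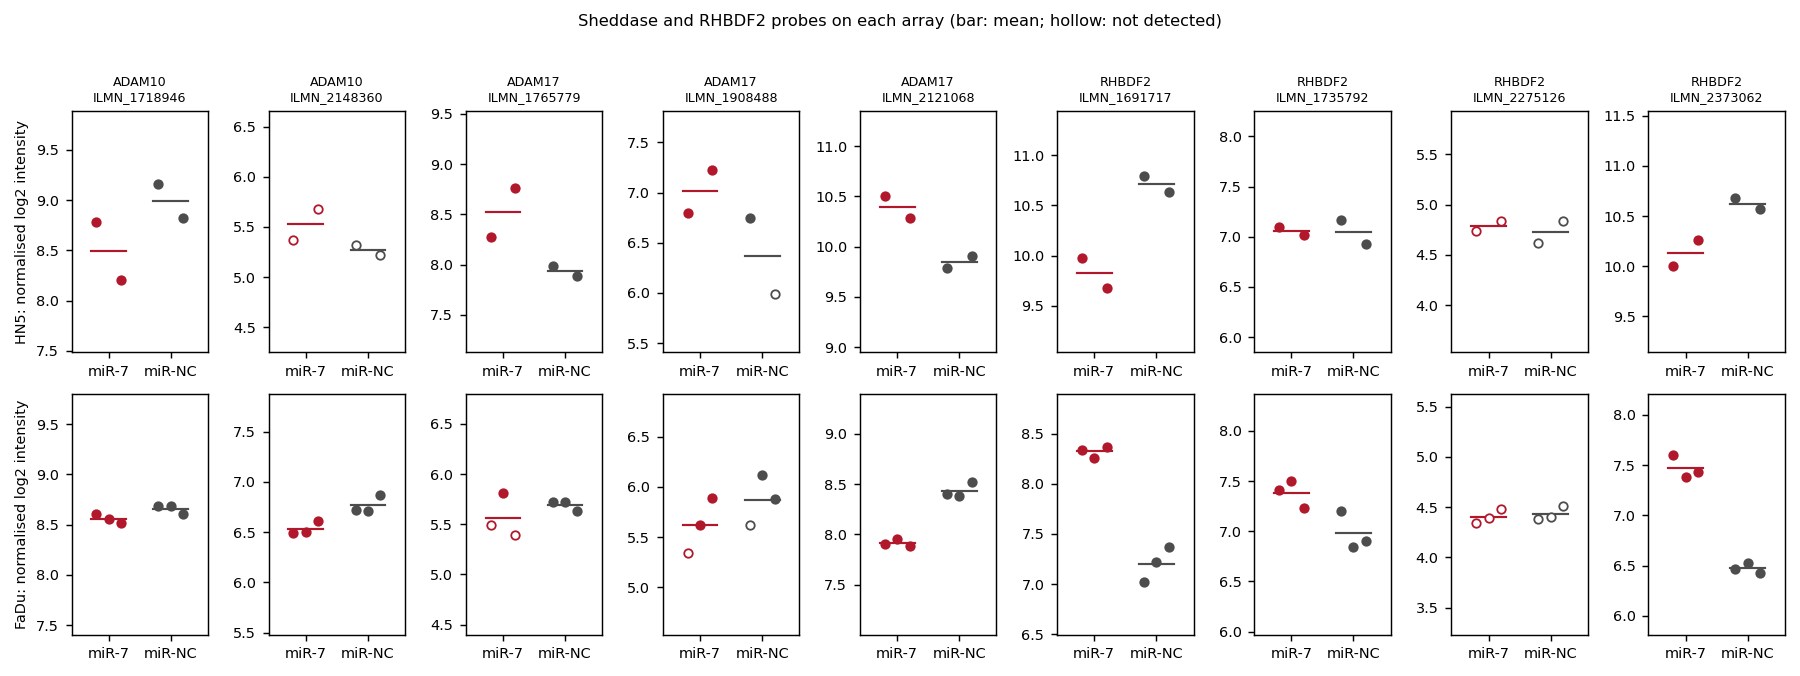
Normalised log2 intensity of the 9 probes of ADAM10, ADAM17 and RHBDF2 on each array, laid out as for the ligands (HN5 above, FaDu as labelled below, miR-7 left of miR-NC, bars for means, hollow points for arrays without detection). The ADAM17 probe ILMN_2121068 lies higher with miR-7 in HN5 and lower in FaDu as labelled, RHBDF2 probes ILMN_1691717 and ILMN_2373062 do the reverse, and RHBDF2 probe ILMN_2275126 is hollow throughout.

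Counted over the set, 11 of 14 probes, standing for 6 genes, were tested in HN5, of which 7 had negative and 4 positive fold changes. In HN5, 0 of 11 passed an adjusted p of 0.05 in either direction with limma, as did 0% of all 14428 tested probes. At an unadjusted p under 0.05 the count was 5 of 11, against 12.7% of all tested probes. By the study's thresholds 4 of 11 were lower with miR-7 (both TGFA probes, HBEGF and RHBDF2 ILMN_1691717), against 4.74% of all tested probes, and 0 of 11 were higher, against 5.62%. The HN5 groups did not overlap with miR-7 lower at 7 of 11 probes, against 21.3% of all tested probes, and with miR-7 higher at 3 of 11, against 26.7%. The median log2 fold change was -0.49 over the 11 probes and 0.03 over all tested probes.

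In FaDu, 12 of 14 probes, standing for 7 genes, were tested. With limma, 6 of 12 passed an adjusted p of 0.05 with the miR-7 label higher, against 17.6% of all 16277 tested probes, and 2 of 12 passed with it lower, against 18.9%. By the study's thresholds 5 of 12 were higher, against 6.64% of all tested probes, and 0 of 12 lower, against 4.83%. The FaDu groups did not overlap at those same 6 probes with the arrays labelled miR-7 higher, against 23.6% of all tested probes, and at 2 of 12 with them lower, against 26.4%. The median log2 fold change was 0.15 over the 12 probes and -0.02 over all tested probes. Since probes of 1 gene measure the same transcripts, the probe counts are not counts of independent genes: the 6 higher probes came from TGFA, HBEGF and RHBDF2. TGFA and HBEGF were also on gene lists that the study drew from these same arrays. All members were chosen with earlier results of these data known. The counts of either line are therefore not independent evidence of a direction.

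**Figure D3:**
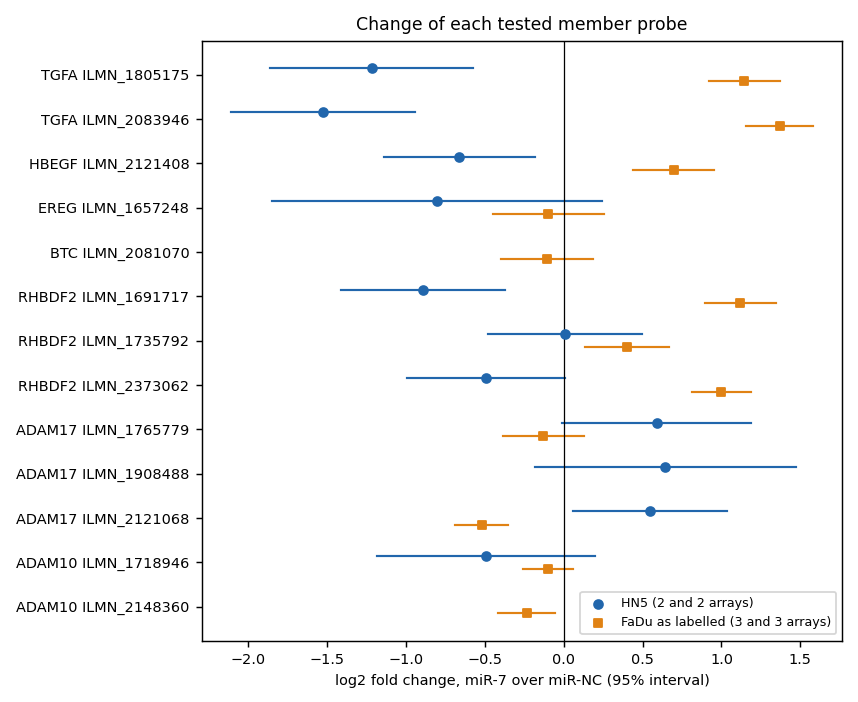
Log2 fold change (miR-7 over miR-NC) of each tested probe with its 95% interval, HN5 as circles and FaDu as labelled as squares. The HN5 intervals are the wider ones, and the TGFA, HBEGF and RHBDF2 probes of FaDu lie to the right of 0 while those of ADAM17 and ADAM10 lie at or left of it.

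Whether the change differed between the lines was examined at the 10 probes of the set that were tested in both. Each line had its own array type and was normalized apart, so line and array type cannot be told apart here. The difference of the log2 fold changes, HN5 minus FaDu as labelled, was -2.89 (95% interval -3.48 to -2.31, adjusted p = 0.000955) at TGFA ILMN_2083946 and -2.36 (95% interval -3.01 to -1.72, adjusted p = 0.00285) at ILMN_1805175, tested on the limma estimates of both lines and adjusted over 12433 probes. It was -1.36 (adjusted p = 0.00513, limma estimates) for HBEGF, and -2.01 (adjusted p = 0.00176) and -1.49 (adjusted p = 0.0057) for RHBDF2 ILMN_1691717 and ILMN_2373062. For ADAM17 ILMN_2121068 it was 1.07 (adjusted p = 0.0182, limma estimates). Hence 5 of 10 probes were lower in HN5, against 7.26% of all tested probes, and 1 of 10 higher, against 6.96%. EREG, ADAM10 ILMN_1718946, ADAM17 ILMN_1765779 and RHBDF2 ILMN_1735792 did not pass (adjusted p = 0.113 to 0.392, limma estimates), with 95% intervals of -1.75 to 0.34, -1.08 to 0.29, 0.11 to 1.33 and -0.90 to 0.12.

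These differences rest on the FaDu labels and on the HN5 miR-NC arrays. With the sign of every FaDu fold change turned, the difference was -0.16 (95% interval -0.74 to 0.43) and -0.072 (95% interval -0.72 to 0.57) at the TGFA probes, 0.034 (-0.46 to 0.53) for HBEGF and 0.027 (-0.46 to 0.52) for ADAM17 ILMN_2121068. For RHBDF2 ILMN_1691717 and ILMN_2373062 it was then 0.23 (-0.30 to 0.75) and 0.51 (0.01 to 1.01), and 0 of 10 probes passed (adjusted p = 0.508 to 0.965, limma estimates). As labelled, 1 of 10 probes was lower and 0 higher without HN5 miR-NC replicate 1, and 2 were lower and 0 higher without HN5 miR-NC replicate 2.

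**Figure D4:**
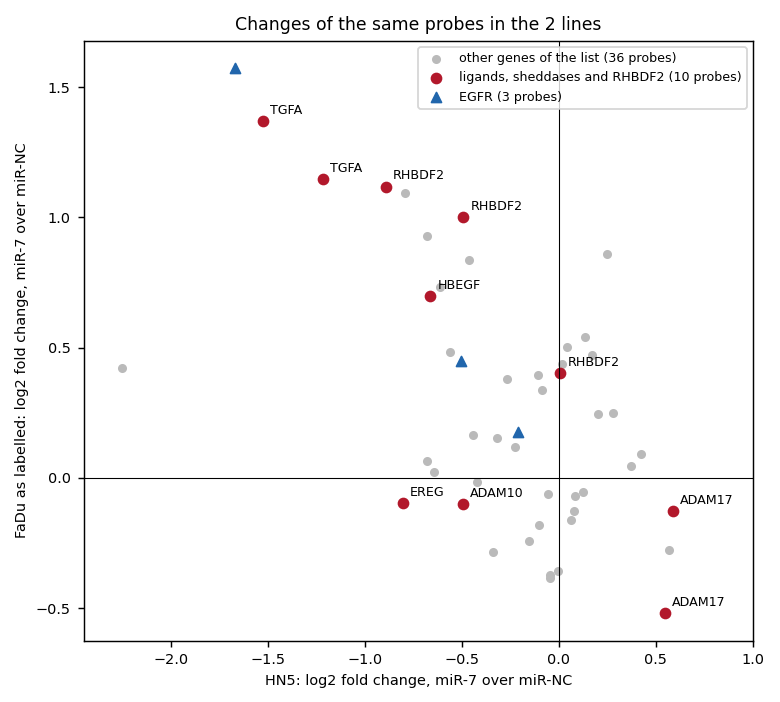
Log2 fold change (miR-7 over miR-NC) of each probe tested in both lines, HN5 on the horizontal and FaDu as labelled on the vertical axis, for the 10 probes of the set, 3 EGFR probes and 36 probes of other genes of the pathway. TGFA, HBEGF and RHBDF2 ILMN_1691717 and ILMN_2373062 lie upper left with EGFR, ADAM17 lies lower right, and EREG and ADAM10 lie just below 0 on the FaDu axis.

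Probes of the set were then set beside TGFA array by array, after subtracting the mean of each line. The TGFA probe with the higher mean over the 10 arrays, ILMN_2083946, was used, although in HN5 ILMN_1805175 was brighter on each array. Over 10 arrays Pearson's r with it was 0.979 for the second TGFA probe, 0.930 for HBEGF, and 0.949 and 0.929 for RHBDF2 ILMN_1691717 and ILMN_2373062. It was -0.977 for ADAM17 ILMN_2121068 and -0.626 for ADAM17 ILMN_1765779, and lay between at 0.298 for EREG, 0.329 for ADAM10 ILMN_1718946 and 0.601 for RHBDF2 ILMN_1735792. For EGFR ILMN_1798975 it was 0.986. These values describe 10 arrays that fall into groups by transfection, and every probe that separates the groups is correlated through them. Out of 10533 shared probes of other named genes, the 5 most like TGFA were those of UHRF1 (r = 0.996), ANKS1A (0.995), TMEM254 (0.993), ZDHHC9 (0.992) and SLC25A25 (0.992).

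**Figure D5:**
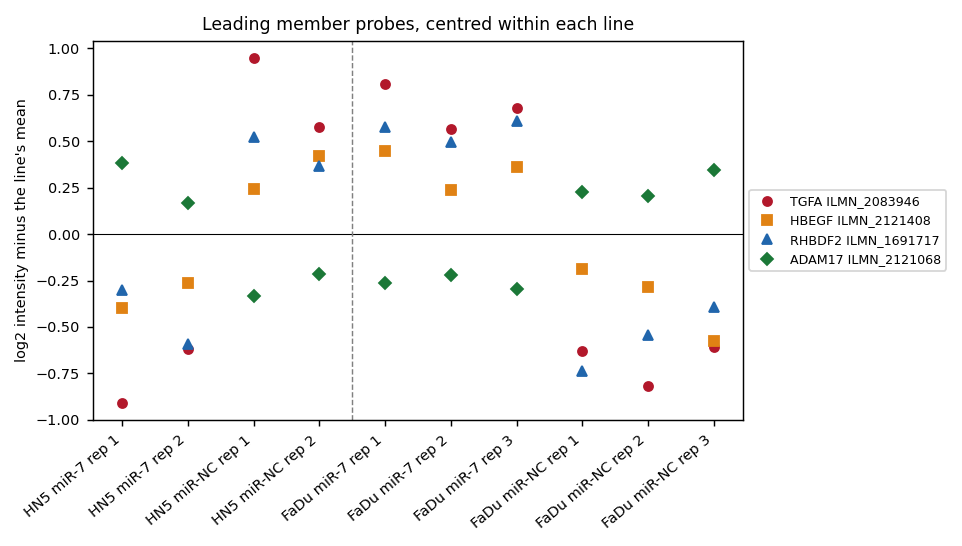
Log2 intensity of 1 probe each of TGFA, HBEGF, RHBDF2 and ADAM17 on the 10 arrays, as the distance from the mean of its line; the dashed line parts HN5 from FaDu. TGFA, HBEGF and RHBDF2 lie on one side of 0 and ADAM17 on the other on every array, and the sides change between miR-7 and miR-NC in each line.

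The other genes of the pathway were taken from a list of 42, comprising further ErbB ligands and receptors, other sheddases and rhomboids, proteins that mature, traffic or inhibit ADAM10 and ADAM17, and proteins that traffic or bind the ligands. A probe was available for 41 of them. In HN5, 46 probes of 33 genes were tested and 0 passed an adjusted p of 0.05 (limma), while 5 were lower and 2 higher by the study's thresholds, which 4.74% and 5.62% of all tested probes passed in those directions. In FaDu, 44 probes of 31 genes were tested, of which 15 passed the adjusted test with the miR-7 label higher and 5 with it lower, where 17.6% and 18.9% of all tested probes did so. The median log2 fold change over the list was -0.07 in HN5 and 0.14 in FaDu.

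Of 15 probes of genes that act on the sheddases tested in FaDu, 7 were higher and 1 lower on the arrays labelled miR-7, beside the same 17.6% and 18.9% of all probes. PCSK7, a proprotein convertase, had a log2 fold change of 0.93 (adjusted p = 0.000266, limma), and FURIN, the convertase known for removing the prodomain of ADAM17, 0.73 (adjusted p = 0.00212). TSPAN10 and TSPAN17, tetraspanins that carry ADAM10 to the surface, had log2 fold changes of 0.86 (adjusted p = 0.000323) and, at the brighter of 2 probes, 0.54 (adjusted p = 0.00176). FRMD8, which stabilises iRhom proteins, was higher by 0.72 (adjusted p = 0.00292, limma). The values in HN5 were -0.68 for PCSK7, -0.61 for FURIN, 0.25 for TSPAN10 and 0.14 for the same TSPAN17 probe, with adjusted p of 0.310 to 0.768 (limma). Of these only PCSK7 passed the study's thresholds in HN5 (unadjusted p = 0.0192, limma). FRMD8 was represented in HN5 only by another probe, ILMN_2157932, which was not detected on any array of either line.

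Among the ligands of other ErbB receptors, NRG1 ILMN_1844593 was higher on the FaDu arrays labelled miR-7 by 0.84 on the log2 scale (adjusted p = 0.000188, limma) and NRG4 by 0.44 (adjusted p = 0.00298). Neuregulins bind ERBB3 and ERBB4. A second NRG1 probe, ILMN_1737252, had a FaDu log2 fold change of -0.018 (adjusted p = 0.926), so the NRG1 probes disagreed in FaDu. In HN5 the values were -0.46 at ILMN_1844593 and -0.42 at ILMN_1737252 (adjusted p = 0.422 and 0.527, limma). NRG4 had 0.014 there (adjusted p = 0.988). On the FaDu arrays labelled miR-7 the cell-surface proteoglycan SDC4 was higher by 1.09 (adjusted p = 0.000156, limma). CD44, a hyaluronan receptor whose variant forms bind HBEGF, was higher on them by 0.38 at ILMN_1803429 (adjusted p = 0.00881). In HN5 SDC4 had a log2 fold change of -0.79, which passed the study's thresholds (unadjusted p = 0.00608, limma) but not the adjusted test (adjusted p = 0.211). CD44 ILMN_2348788 had the most negative value of the list in HN5, -2.25, with a spread between its miR-7 arrays of 2.64 (SD, n = 2) against 0.18 for miR-NC. The difference was thus within the replicate error (adjusted p = 0.480, limma). The other tested CD44 probes were nearer to no change in HN5, at -0.27 for ILMN_1803429 (adjusted p = 0.586) and -0.11 for ILMN_1778625 (adjusted p = 0.802).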

How the data were processed

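The deposited intensity values are scanner readings, 1 per probe and array, which the authors neither background-corrected nor normalized. The deposited detection p-value columns hold 1 minus p. The authors' log2 values came from a variance-stabilizing transformation (lumi, R 2.11.0) and quantile normalization. In those tables the cells are out of step with the identifiers, so they were put back into the intensity tables' order, and they served as an alternative only.

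Intensities were processed with neqc of limma 3.58.1 (R 4.3.3; offset 16, quantile normalization within each line). A probe was tested where all arrays of 1 group or more had a detection p under 0.01, with lmFit and eBayes, two-sided, and Benjamini-Hochberg adjustment over all tested probes. Probes were named through the platform annotation, with symbols updated by Entrez identifier: 27577 HN5 and 30112 FaDu probes had 1 gene, 13 and 8 several, and 21212 and 17110 none. The difference between lines was the gap between the fold changes over its combined moderated standard error, with Satterthwaite degrees of freedom. The number of arrays limits the precision.

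The members and lists were chosen with earlier results of these data known. Named genes are all members, EGFR, up to 10 genes of the pathway list by smallest p among those passing in either line, and the 5 probes most like TGFA. Later genes of the list are given as counts. Exceptions chosen after their values were seen are the further probes of NRG1, CD44 and FRMD8. The procedure was run on simulated data in which all probes of a line shared 1 spread and no array stood apart. That run therefore cannot show how the procedure behaves with the HN5 array that stood apart or with unequal spreads. Summaries and plots used pandas 2.3.3, SciPy 1.17.1, NumPy 2.4.6, Matplotlib 3.10.9 and Python 3.11.15.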

Additional observations from a re-analysis of the deposited data

Results flagged for a closer look

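At 6 probes of the set the change differed between the lines by the test of the difference itself, HN5 minus FaDu as labelled: TGFA ILMN_1805175 (-2.36) and ILMN_2083946 (-2.89), HBEGF (-1.36), RHBDF2 ILMN_1691717 (-2.01) and ILMN_2373062 (-1.49), and ADAM17 ILMN_2121068 (1.07). That test called 5 of 10 probes of the set lower in HN5, against 7.26% of all 12433 tested probes, and 1 of 10 higher, against 6.96%. The called probes came from TGFA, HBEGF, RHBDF2 and ADAM17 only. Each of the 6 differences depends on the FaDu labels, under which EGFR was higher with miR-7. With the FaDu sign turned none of the 6 passed (adjusted p = 0.508 to 0.965, limma estimates).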

How the results depend on the processing

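Alternatives were no background correction, an offset of 50, median scaling, the authors' log2 values, no detection filter, detection on every array, the brightest probe per gene, the methods' t-test, a replicate block and leaving out each array. A robust variance prior and the turned FaDu sign were added after seeing the data. The limits are 2 arrays per group in HN5, the array that stands apart there, and dim signal for BTC, EREG, ADAM10 ILMN_2148360 and ADAM17 ILMN_1908488 in HN5. Median scaling moved the median log2 fold change of all HN5 probes to -0.16.

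In HN5, 0 probes passed an adjusted p of 0.05 in either direction, and 0 with the methods' t-test. The numbers lower and higher were 13 and 21 without background correction, 7 and 11 with the authors' values, 56 and 75 where detected on every array, 12 and 17 with the brightest probe and 110 and 127 with the robust prior. Over left-out arrays they ran from 0 to 1245 and from 0 to 725. TGFA ILMN_2083946 was the 1 member called, lower, under the stricter detection filter (adjusted p = 0.0369, limma) and under the robust prior (adjusted p = 0.0218), and the members ran from 0 to 4 lower and from 0 to 1 higher over left-out arrays. At the study's thresholds (684 lower, 811 higher) the counts were 406 and 413 without background correction, 1045 and 351 with median scaling, 324 and 316 with the authors' values, and 343 and 349 with the methods' t-test, and 421 were lower with the brightest probe. Over left-out arrays they ran from 281 to 1742 and from 349 to 1842. Members lower numbered 2 with the brightest probe and 2 to 6 over left-out arrays. Members higher numbered 2 without the detection filter, 1 under the stricter detection filter, 1 under the robust prior and 0 to 2 over left-out arrays.

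In FaDu, 3071 probes were lower and 2872 higher. The methods' t-test gave 2027 lower and median scaling 1790 higher, and left-out arrays gave 2235 to 2643 and 2252 to 2565. The study's thresholds gave 786 lower and 1080 higher, but 241 and 498 without background correction, 491 lower with the offset of 50, and 176 and 387 with the authors' values. Left-out arrays gave 797 to 864 and 1089 to 1145. Members lower numbered 1 instead of 2 without background correction, with the offset of 50, median scaling, the authors' values, no detection filter, the brightest probe, the methods' t-test and the replicate block, and 1 to 2 over left-out arrays. Members higher numbered 3 with the brightest probe, 5 with median scaling, no detection filter and the methods' t-test, 6 otherwise, and 5 to 6 over left-out arrays. At the study's thresholds members higher numbered 3 without background correction, 2 with the authors' values, 3 with the brightest probe and 4 to 5 over left-out arrays.

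For the difference between lines, 903 probes were lower and 865 higher in HN5. The methods' t-test gave 450 and 500, median scaling 326 higher and the replicate block 573 higher. With the FaDu sign turned the counts were 2 and 16, with 0 and 0 members. Left-out arrays gave 71 to 1863 and 26 to 1886, with 1 to 6 members lower and 0 to 2 higher. Members higher numbered 0 with median scaling, 2 without the detection filter and 0 with the methods' t-test.

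Values that changed sign were not called in either setting, apart from 3 differences under the turned FaDu sign: HBEGF 0.034, RHBDF2 ILMN_1691717 0.23 and ILMN_2373062 0.51, beside RHBDF2 ILMN_1735792 at 0.41. RHBDF2 ILMN_1735792 in HN5 was -0.20 with median scaling, -0.11 without miR-NC replicate 2 and -0.034 without miR-7 replicate 1 (-0.11 to 0.13 over left-out arrays). EREG in FaDu was 0.023 without miR-NC replicate 1 and 0.046 without miR-7 replicate 2 (-0.23 to 0.046 over left-out arrays). The cause was not tested.

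Replicate numbers did not pair the arrays: deviations of same-numbered arrays correlated at 0.001 in HN5 and at -0.026 to 0.054 in FaDu. With the replicate block, ADAM10 ILMN_2148360 lost its call in FaDu (adjusted p = 0.0511, limma), and 573 probes in place of 865 were higher in HN5 than in FaDu.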
